A study of Mus musculus with 12 samples.

Results

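In chromatin of the embryonic mouse cerebral cortex, 9370 regions acetylated on lysine 27 of histone H3 (H3K27ac) lay deep inside protein-coding genes and were present in every library. Peaks from the 6 deposited peak lists that overlapped or touched were merged into 85918 regions, and 39889 of these held a peak in all 6 libraries. Of the shared regions, 39882 lay on chromosomes 1 to 19, X and Y, 39635 were also under 10000 bp wide, and 26411 of those overlapped a protein-coding gene body. The 9370 that lay more than 20 kb from every protein-coding gene end made up 10.9% of all merged regions and 23.5% of the shared ones. They are called deep regions here, and the bases of a gene body beyond that 20 kb limit are called its deep interior.

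The libraries came from native H3K27ac chromatin immunoprecipitation of whole cortex at E15.5, with 3 libraries per genotype. Both genotypes carried the floxed Prdm16 allele on both chromosomes (Prdm16 flox/flox), and the wild-type (WT) libraries lacked Cre. The conditional knockout (cKO) libraries came from embryos that also carried Emx1Ires-Cre, a Cre inserted at Emx1, a gene active in progenitors of the dorsal forebrain, so that cells of other origin in the same tissue need not recombine. The labels do not say whether replicates were separate embryos or litters, so the p-values below reflect the spread among these 6 libraries alone, and that spread may be technical. Values are positions and lengths of peaks. No read counts were used, so depth is unknown, and because the tissue was bulk, fewer cells carrying a mark and less acetylation per cell cannot be told apart. WT lists covered 83.3, 92.1 and 53.9 Mb in replicates 1 to 3 and cKO lists 72.9, 70.8 and 63.5 Mb. The list of WT replicate 3 was the shortest. A library identifier in the file names is the same for replicates 1 and 2 of both genotypes (identifier A) and different for replicate 3 of both (identifier B). The labels do not say what it stands for.

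H3K27ac is laid down on nucleosomes by the acetyltransferases p300 and CBP and is found at active promoters and enhancers. Away from the ends of a gene, acetylated chromatin usually belongs to enhancers in introns, which may act on the host gene or on another gene, or to internal promoters from which shorter isoforms start. Long genes with long introns are common among genes of neuronal adhesion, axon growth and transcriptional control, so their bodies hold much of the distal regulatory sequence of the developing brain. PRDM16 is a zinc-finger protein of neural progenitors that binds distal regulatory sites and acts with chromatin-modifying complexes.

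Some deep regions covered a transcription start inside the host gene, and their sequences show how different such starts can be. RefSeq promoter windows (GRCm38.p6, 250 bases before to 50 after a start) are printed 5′ to 3′ on the strand of the gene, with CG dinucleotides in capitals. The first 4 windows lay in deep regions. The last 2 are windows of the same 2 genes, Ank2 and Arhgef2, that also lay in the deep interior but were touched by no peak of any library.
St8sia1, chr6:142964403-142964702, minus strand, in a deep region: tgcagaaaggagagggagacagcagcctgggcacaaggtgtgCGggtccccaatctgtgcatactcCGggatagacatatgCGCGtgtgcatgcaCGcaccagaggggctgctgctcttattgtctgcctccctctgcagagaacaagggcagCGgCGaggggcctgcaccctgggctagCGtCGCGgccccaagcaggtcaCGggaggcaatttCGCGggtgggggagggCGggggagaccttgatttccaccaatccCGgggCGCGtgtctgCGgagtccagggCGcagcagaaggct
Arhgef2, chr3:88621221-88621520, plus strand, in a deep region: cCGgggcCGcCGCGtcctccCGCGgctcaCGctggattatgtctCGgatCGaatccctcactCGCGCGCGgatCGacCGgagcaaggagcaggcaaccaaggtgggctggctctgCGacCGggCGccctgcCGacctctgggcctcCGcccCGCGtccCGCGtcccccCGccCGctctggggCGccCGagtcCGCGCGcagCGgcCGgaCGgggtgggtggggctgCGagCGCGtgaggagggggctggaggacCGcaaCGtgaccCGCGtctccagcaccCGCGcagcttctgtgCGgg
Rtn1, chr12:72236678-72236977, minus strand, in a deep region: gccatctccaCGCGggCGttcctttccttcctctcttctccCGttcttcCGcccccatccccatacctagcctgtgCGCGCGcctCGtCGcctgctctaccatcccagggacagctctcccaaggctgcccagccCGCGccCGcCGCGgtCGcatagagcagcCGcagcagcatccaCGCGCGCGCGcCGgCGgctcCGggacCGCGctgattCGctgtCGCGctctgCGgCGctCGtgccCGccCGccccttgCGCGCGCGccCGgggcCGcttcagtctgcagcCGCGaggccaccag
Ank2, chr3:127409009-127409308, minus strand, in a deep region: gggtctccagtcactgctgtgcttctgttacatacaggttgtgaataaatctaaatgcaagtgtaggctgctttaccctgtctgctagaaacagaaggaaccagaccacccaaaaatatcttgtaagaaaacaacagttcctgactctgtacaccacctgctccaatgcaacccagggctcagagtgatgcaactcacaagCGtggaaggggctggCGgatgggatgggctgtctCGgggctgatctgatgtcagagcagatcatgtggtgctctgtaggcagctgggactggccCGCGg
Ank2, chr3:126943337-126943636, minus strand, touched by no peak: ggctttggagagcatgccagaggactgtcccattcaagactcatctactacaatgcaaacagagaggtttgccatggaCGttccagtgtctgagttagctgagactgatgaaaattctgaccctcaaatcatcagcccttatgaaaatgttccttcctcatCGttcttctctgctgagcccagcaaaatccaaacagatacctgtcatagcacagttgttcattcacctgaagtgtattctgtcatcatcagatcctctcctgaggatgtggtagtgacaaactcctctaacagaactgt
Arhgef2, chr3:88629223-88629522, plus strand, touched by no peak: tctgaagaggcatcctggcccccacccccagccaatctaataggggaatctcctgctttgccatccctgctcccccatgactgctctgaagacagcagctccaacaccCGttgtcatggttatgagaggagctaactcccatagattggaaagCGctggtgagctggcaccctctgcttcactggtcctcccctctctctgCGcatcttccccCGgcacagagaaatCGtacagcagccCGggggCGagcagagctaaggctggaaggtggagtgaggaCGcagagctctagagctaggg
The Arhgef2 window held 44 CG dinucleotides and a GC content of 75.7%, and the Rtn1 window held 43 at 73.3%. The St8sia1 window held 19, and the acetylated Ank2 window held 5 at a GC content of 52%. The untouched windows held 2 in Ank2 and 8 in Arhgef2. Both CG-rich and CG-poor starts thus occurred in deep regions.

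There were 10 deep regions that covered a microRNA hairpin. Mature sequences of 4 of these loci, both arms for Mir128-2 and 1 arm for the others, are printed 5′ to 3′ from RefSeq (GRCm38.p6), with the seed, bases 2 to 8, in capitals.
mmu-miR-128-3p: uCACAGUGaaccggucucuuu
mmu-miR-128-2-5p: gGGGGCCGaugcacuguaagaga
mmu-miR-701-5p: uUAGCCGCugaaauagaugga
mmu-miR-5129-3p: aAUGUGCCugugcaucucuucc
mmu-miR-6346: uAGCAGGUgucugcaaugccaa
The first pair comes from Mir128-2 (chr9:112118636-112118711, minus strand) inside Arpp21, a gene for an RNA-binding phosphoprotein of neurons. The miR-128 family is abundant in brain. The others lie inside Ttc28 (Mir701), Zeb2 (Mir5129), which encodes a zinc-finger homeobox factor of cortical neurons, and Gli2 (Mir6346), which encodes a transcription factor of Hedgehog signalling.

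Deep regions were narrow and many were weak. The median width was 1657 bp, with quartiles at 1159 and 2460 bp and a range from 229 to 9989 bp, and the median distance to the nearest gene end was 60884 bp. The weakest of the 6 libraries gave a median −log10 q of 4.24 per region (1.32 to 57.7), and 3947 regions (42.1%) reached 5 in every library. In 87.5% of the regions every one of the 6 libraries had a single peak. Of the 9370 regions, 9331 lay in 1 gene, 38 in 2 overlapping genes and 1 in 3. Chromosome 2 held 851 (9.08%), the X chromosome 133 (1.42%) and the Y chromosome 0. At the distance limit, the nearest region kept lay 20002 bp from a gene end in Ramp1, where covered lengths averaged 1100 bp (WT) and 425 bp (cKO), and the nearest left out lay at 19995 bp in Anln (299 and 459 bp). At the width limit, the widest region kept was 9989 bp in Lmo3 (9269 and 9266 bp) and the narrowest left out was 10052 bp in Nfia (9522 and 9082 bp).

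Gene interiors carried shared H3K27ac regions more densely than distal intergenic DNA. The 583 Mb of deep interior held 16.1 deep regions per Mb. Distal intergenic DNA, outside protein-coding genes and more than 20 kb from any of their ends, held 7.36 shared regions per Mb (9242 in all). Its 1255 Mb were counted between the outermost protein-coding genes of each chromosome, with assembly gaps not removed. The 9242 regions could also lie beyond those genes. Counting every peak of a library, whether shared or not, 3.77, 4.28 and 2.12% of the deep interior was covered in WT replicates 1 to 3 and 3.13, 3.05 and 2.61% in the cKO replicates. The matching values for distal intergenic DNA were 1.40, 1.58 and 0.844% in WT and 1.19, 1.12 and 1.02% in cKO. Every interior value lay above every intergenic value, and the difference within a library was 1.97 ± 0.512 percentage points (SD, n = 6), positive in 6 of 6 libraries (two-sided exact sign-flip permutation test, p = 0.03125, the smallest that 6 libraries can give, and 0.03125 after Benjamini-Hochberg adjustment over 4 added comparisons).

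In strength, deep regions stood far below regions at gene ends and close to distal intergenic ones. Strength was the highest fold enrichment of a peak in the region, a value of the authors' peak caller, and classes were compared only within a library. The median over deep regions was 5.11, 5.19 and 5.22 in WT and 5.27, 4.97 and 5.31 in cKO. Shared regions within 2 kb of a gene end (12489 in all) had medians of 9.71, 9.67 and 9.07 in WT and 10.3, 10.1 and 9.52 in cKO. The difference was −4.55 ± 0.489 (SD, n = 6), between −5.11 and −3.86. Against distal intergenic regions the difference was −0.166 ± 0.0418 (SD, n = 6), negative in 6 of 6 libraries but never beyond −0.211. In the weakest library per region, 84.8% of gene-end regions and 45.2% of distal intergenic regions reached a −log10 q of 5, beside the 42.1% of deep regions.

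In length the order was different. Deep regions were covered over a median of 1294, 1392 and 840 bp in WT and 1152, 1106 and 996.5 bp in cKO, which was 442 ± 72.7 bp less than gene-end regions in the same library and 128 ± 46.6 bp more than distal intergenic ones (SD, n = 6). Each of these 4 class differences had the same sign in 6 of 6 libraries (two-sided exact sign-flip permutation test, p = 0.03125, adjusted p = 0.03125 over the 4 class comparisons). Restricted to peaks whose −log10 q reached 5, the length difference to gene ends shrank to −66.5 bp (exact sign-flip permutation test, adjusted p = 0.09375).

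**Figure D1:**
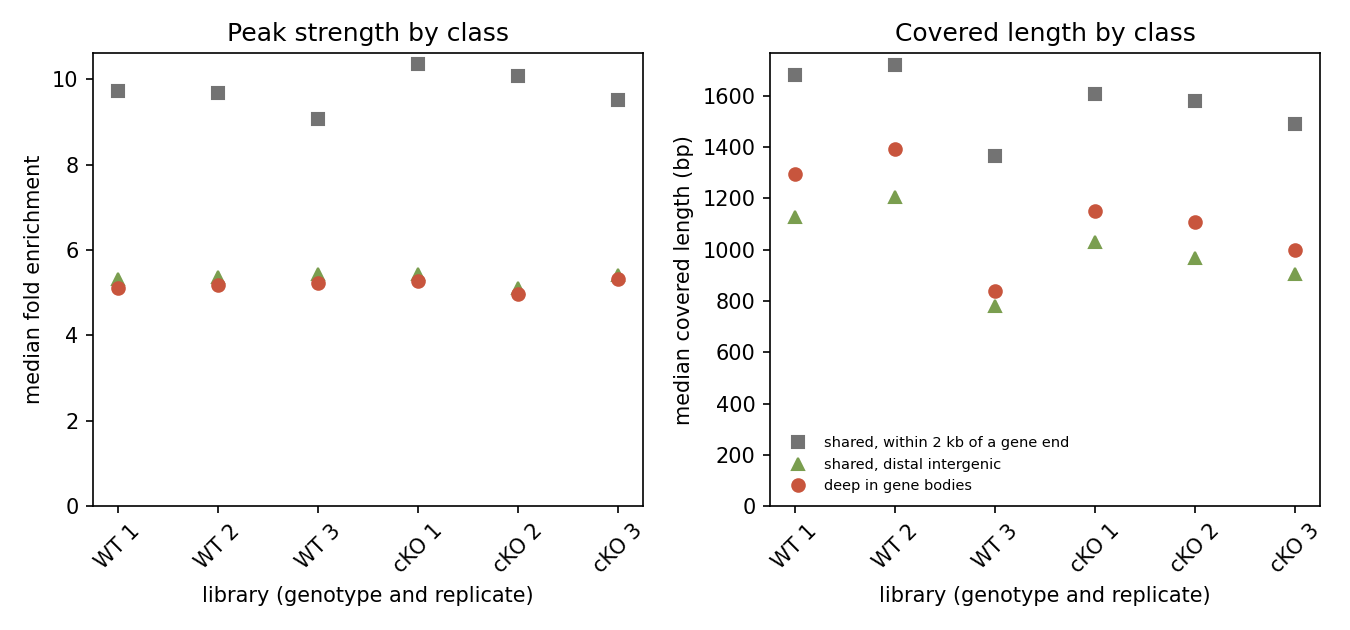
Median fold enrichment (left, no unit) and median covered length in bp (right) of shared regions in each of the 6 libraries, 1 point per class and library, for deep regions, regions within 2 kb of a gene end and distal intergenic regions. In fold enrichment the deep regions (4.97 to 5.31) lie beside the distal intergenic ones and far below gene ends (9.07 to 10.3), and in length they lie between both other classes in every library.

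The side of a deep interior nearer the start of its gene held slightly less of the covered length than the far side. Strand was known for 4612 of the 5858 genes with a deep interior. Cutting each interior at its midpoint, the side nearer the start of the gene held 48.7, 48.9 and 49.1% of the covered length in WT and 49.2, 49.3 and 49.1% in cKO. The shortfall from 50% was −0.932 ± 0.227 percentage points (SD, n = 6), negative in 6 of 6 libraries (exact sign-flip permutation test, p = 0.03125, adjusted p = 0.03125).

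The deep regions were concentrated in a minority of genes. Of 5858 genes with a deep interior, 2571 (43.9%) held at least 1 deep region, and 989 held exactly 1. The 209 genes with 10 or more held 3209 regions, or 34.2% of the total, and 35 genes held 20 or more. Genes with a region had a median deep interior of 95.3 kb and genes without one 20.2 kb, so gene length enters every such count.

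The 15 genes holding most regions together held 518. Their interiors held 4.97 regions per 100 kb, against 1.61 over all interiors, but this group was chosen on its counts and the comparison is a description. Tenm4, a teneurin, a transmembrane adhesion protein of synapses (chr7:96171244-96911093), came first with 58 regions, or 8.29 per 100 kb. Its paralogues Tenm3 and Tenm2 held 29 and 28 regions in longer interiors, 2.31 and 2.35 per 100 kb. Sox5, a transcription factor of deep-layer neurons, and Auts2, a regulator of transcription and neuronal migration, each held 45. Dab1, the adaptor that carries the reelin signal in migrating neurons, held 40. Nfia, a nuclear factor I gene of glial and neuronal development, Msi2, an RNA-binding protein of progenitors, Celf2, a splicing regulator, Nav2, a microtubule-binding navigator, Bach2, a transcriptional repressor, and Ttc28, a tetratricopeptide repeat protein, held 30 each. Gse1, a partner of histone demethylase complexes, held 37 in only 312.8 kb, or 11.8 per 100 kb. The zinc transporter gene Slc39a11 and the tRNA-modifying enzyme gene Cdkal1 held 28 each, and neither is known chiefly for a role in neurons.

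**Figure D2:**
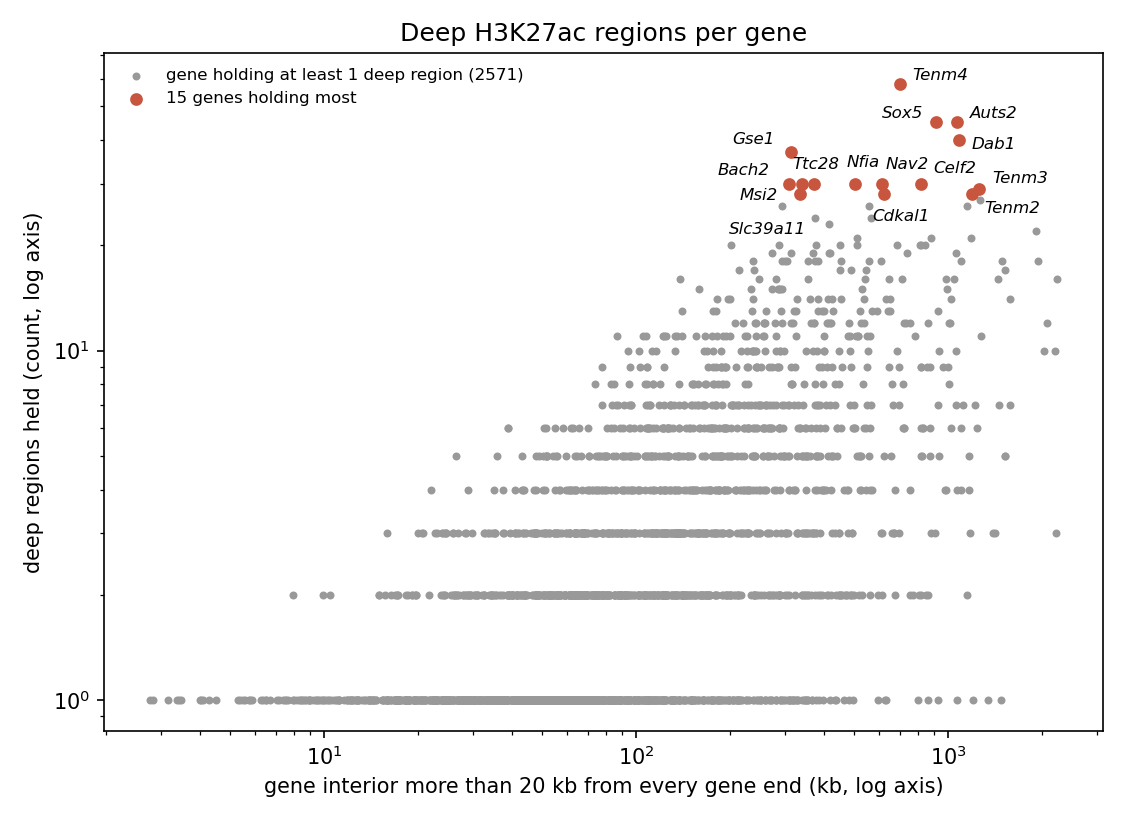
Number of deep regions held (count, log axis) against the length of the deep interior in kb (log axis), 1 point for each of the 2571 genes holding at least 1 region, with the 15 genes holding most named. Tenm4 stands highest with 58 regions, and Gse1 and Bach2 reach 37 and 30 in interiors of 312.8 and 307.7 kb, while Dab1, Tenm3 and Tenm2 need over 1000 kb for 40, 29 and 28.

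Neighbouring regions in the same gene were separated by a median of 14693 bp over 6839 gaps. Within Gse1 the median gap was 3154.5 bp, in Bach2 4415 bp, in Ttc28 4541 bp, in Nfia 5005 bp and in Tenm4 5114 bp. In Dab1 and Tenm3 the median gaps, 17202 and 18554 bp, exceeded that of all genes. The highest count per length among genes with at least 5 regions belonged to Mark2, a kinase of microtubules and cell polarity, with 5 regions in 26.5 kb (18.9 per 100 kb). Macrod1, an ADP-ribosylhydrolase gene, and Flrt1, an adhesion gene inside it, shared the same 6 regions at 15.497 per 100 kb. Sez6l, which encodes a membrane protein of neurons, held 11 at 12.7 per 100 kb. Wdr66, Fbxw8, Dpy19l1, Tnfrsf19 and Coro2b held 5 to 9 regions at 11.6 to 13.98 per 100 kb.

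A long interior did not by itself bring deep regions. Of 187 genes with at least 500 kb of deep interior, 23 held 20 or more regions, 47 held 1 to 4 and 15 held 0. The longest without one were Naaladl2 (1306 kb), the sarcoglycan gene Sgcz (1104 kb), Erbb4 (1037 kb), which encodes a neuregulin receptor of cortical interneurons, the syntrophin gene Sntg1 (901.9 kb) and the contactin-associated gene Cntnap5a (862.6 kb). Dpp10, an auxiliary subunit gene of potassium channels, and Il1rapl1, a synaptic adhesion gene, held 1 region each in 1474 and 1335 kb. Dmd, the dystrophin gene, held 3 in 2217 kb. These genes were picked after their counts were seen.

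Lists of genes grouped by function, chosen with earlier results of these data known, differed in how densely they were marked. Among 46 genes listed as transcription factors of cortical development, 44 of the 45 with a deep interior held 436 regions, 3.10 per 100 kb. Sox5, Auts2 and Nfia led this list, in which Auts2 was counted as a regulator of transcription. Chromatin regulators held 118 regions at 2.83 per 100 kb, led by the BAF subunit gene Arid1b (19) and the corepressor gene Rere (18). Genes of radial glia and progenitors held 43 at 2.71, led by Gli3 (10), a Hedgehog effector of dorsal patterning. Cytoskeletal and migration genes held 279 at 2.54, and RNA-binding and splicing genes 152 at 2.40. Cadherins held 111 at 1.67, led by Cdh13 (26), and axon guidance genes 160 at 1.52, led by Robo2 (17), a Slit receptor. Genes of synaptic and neuronal adhesion held 407 regions but only 1.32 per 100 kb of their 30.8 Mb, ion channel genes 1.26, and glutamate and GABA receptor genes 0.806. Among the lists of other cell types, interneuron and ventral forebrain genes held 6 regions at 0.346 per 100 kb in 3 of 7 genes with a deep interior, oligodendrocyte genes 11 at 1.19 in 4 of 7, and vascular, meningeal, microglial and blood genes 12 at 1.28 in 7 of 13. Erbb4 alone, with 0 regions, made up 1037 kb of the 1.74 Mb of interior of the interneuron list. Ebf1, Tcf7l2 and Gli3 were shared between lists.

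Some deep regions lay over annotated internal promoters. The RefSeq promoter table holds 4612 of the 5858 genes with a deep interior, so the counts here can miss promoters. A RefSeq promoter window was overlapped by 500 deep regions (5.34%). In 374 of them (3.99%) the window belonged to the host gene, with 332 host genes in all, and in the other 126 only to another gene. Windows of other genes in deep regions belonged to 161 genes, all annotated as long non-coding RNAs, since the distance rule keeps out the ends of protein-coding genes. Read the other way, 613 of the 2199 promoter windows that lay wholly in deep interiors (27.9%) were in a deep region. Of the 1586 that were not, 216 were touched by another merged region and 1370 by none.

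The windows in deep regions were richer in CG dinucleotides than those outside. The median count in 300 bases was 12 for the 430 windows of host genes, 6 for the 183 windows of other genes, 3 for deep windows outside deep regions and 7 over all 32851 RefSeq windows. The median GC content was 57.2, 51.7, 47 and 52.7%. Windows with 30 or more CG dinucleotides made up 16.0% of the host set, 5.46% of the other-gene set and 1.01% of the deep windows outside. Short motifs were searched on both strands of the windows. The E-box CAGCTG was in 20.2% of host windows, 32.2% of other-gene windows, 17.0% of the deep windows outside and 16.3% of all windows. The CCAAT box was in 35.3, 31.7, 34.0 and 37.4% in the same order, and the homeodomain motif TAATTA in 4.88, 7.10, 6.56 and 5.29%. These shares are a description of letters in RefSeq windows, and the regions' own sequences were not analysed here.

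**Figure D3:**
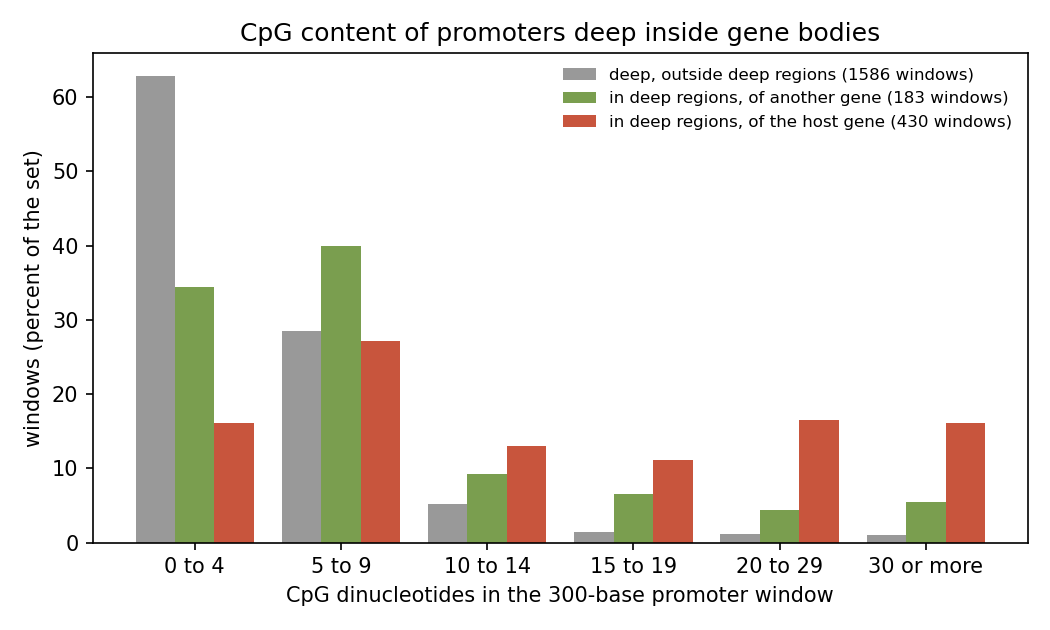
Share of promoter windows (percent of each set) by the number of CG dinucleotides in the 300-base window, for deep windows outside deep regions (1586), windows of other genes in deep regions (183) and windows of the host gene in deep regions (430). Of the windows outside, 62.8% hold 4 or fewer, against 16.0% of the host gene windows, while 16.0% of the host gene windows and 1.01% of those outside hold 30 or more.

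Deep regions over a promoter of the host gene were stronger and longer than those over none. Their median fold enrichment was 8.47, 8.49 and 8.05 in WT and 9.25, 8.86 and 8.77 in cKO, and that of regions with no promoter window 5.05, 5.12 and 5.15 in WT and 5.20, 4.90 and 5.25 in cKO. The host-promoter median was the higher in every library, and the difference was 3.54 ± 0.423 (SD, n = 6). Regions with only a promoter of another gene lay between, at 5.79 to 6.21. The covered length was 652 ± 37.9 bp greater with a host promoter than with none (SD, n = 6). Both differences were positive in 6 of 6 libraries (two-sided exact sign-flip permutation test, p = 0.03125, adjusted p = 0.03125 over the 4 added comparisons).

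The strongest deep regions, ranked by the −log10 q of their weakest library, were of both kinds. The first lay on chromosome 18 in a gene body shared by the models Gm37013, Gm38666 and Gm38667, at 57.7. St8sia1, the gene of a sialyltransferase of gangliosides, came next (chr6:142963087-142965934, over a host promoter) at 53.7. Its covered length was 2803, 2524 and 2347 bp in WT replicates 1 to 3 and 2335, 2511 and 2613 bp in cKO, and the genotypes overlapped. Camta1, a calmodulin-binding transcription activator gene (chr4:151126567-151131268), had 53.0 without a promoter window, and Arhgef2, which encodes a microtubule-bound guanine nucleotide exchange factor, 48.8. The Arhgef2 region (chr3:88620349-88627311), which holds the printed window, covered 6206, 6494 and 4890 bp in WT and 5984, 6308 and 4857 bp in cKO. Numa1, a gene of the spindle pole, Nr6a1, an orphan nuclear receptor gene, Adgrb3, an adhesion receptor gene, Chd9 and Smarca2, both chromatin remodeller genes, and Trio, a guanine nucleotide exchange factor gene, followed at 44.6 to 48.7. Between genotypes these 10 regions differed by log2 changes of 0.01 to 0.20 in scaled length, and none passed the limma test described next. In 9 of the 10 the genotypes overlapped, Trio being the exception.

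Covered length was then compared between genotypes for every region. Lengths were scaled to the same total covered length in each library, log2 transformed after adding 200 bp and fitted with limma, with the library identifier as a covariate. The fit took 52636 merged regions with a mean scaled length of at least 250 bp, which included 9352 of the 9370 deep regions. A scaled length can exceed the width of a region. The requirement of a peak in every library keeps out regions that appear or vanish with genotype. Over all regions tested, 395 passed (0.75%), 137 longer (0.26%) and 258 shorter (0.49%) in cKO, and 18 of 39795 shared regions did (0.0452%). Among deep regions 5 passed (0.0535%), 2 longer and 3 shorter in cKO. On simulated data this fit passed none of the planted changes in region length, so the small count does not show that the other regions were alike.

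At an unadjusted p below 0.05, limma gave 853 deep regions (9.12%), 454 longer and 399 shorter in cKO, against 10.2% of all regions (5.04% longer and 5.13% shorter) and 6.65% of shared regions. In 1450 deep regions (15.505%) the scaled lengths of the genotypes did not overlap, against 13.9% of all regions and 12.5% of shared regions. The median log2 change was 0.04 over deep regions and 0.06 over all. Without scaling it was −0.06 and −0.04, so the scaling itself moved the medians by about 0.1. It also moved the split of the unadjusted calls, which without scaling was 210 longer and 591 shorter.

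Prdm16, the targeted gene, held 10 deep regions within chr4:154316122-154637360. H3K27ac over the gene does not report on the recombined allele, so these values do not check the labels. In the region at chr4:154516386-154517648, 558, 534 and 399 bp were covered in WT and 980, 1263 and 1144 bp in cKO. All 3 cKO libraries lay above all 3 WT libraries, with a log2 change of 1.03 ± 0.16 (SE) and an adjusted p of 0.110 in limma, so it did not pass. The widest, at chr4:154580977-154590782, covered 7773, 8278 and 6437 bp in WT and 8715, 8887 and 8566 bp in cKO, again without overlap and without passing (adjusted p = 0.511). Of the 10 regions 7 had a positive change, the median was 0.07 and none passed. Over the whole deep interior of Prdm16, all 3 cKO libraries (73526, 73998 and 78611 scaled bp) lay above all 3 WT libraries (62709, 60074 and 63156 scaled bp), a log2 change of 0.28 ± 0.10 (SE) with an adjusted p of 0.314 in limma.

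Among the deep regions that were longer in cKO was one in Mctp1, which encodes a calcium-binding membrane protein with C2 domains (chr13:76809254-76811021, 222263 bp from the nearest gene end). It covered 447, 551 and 391 bp in WT and 1639, 1167 and 1712 bp in cKO. The genotypes were far apart, with scaled means of 451 ± 70.1 and 1598 ± 382 bp (SD, n = 3 each) and a log2 change of 1.45 ± 0.17 (SE, limma adjusted p = 0.0469). Peak height did not follow the length: fold enrichment was 5.14, 7.06 and 6.44 in WT and 6.89, 4.32 and 6.12 in cKO, with overlap. Restricted to peaks whose −log10 q reached 5, the change in Mctp1 was 0.48 (limma adjusted p = 0.927). The other lay in Dlg5, a scaffold gene of cell polarity and adhesion in progenitors (chr14:24203362-24207957). It covered 1823, 2425 and 1239 bp in WT and 4325, 4151 and 4083 bp in cKO, nearly the whole 4596 bp of the region. The log2 change was 1.26 ± 0.14 (SE, limma adjusted p = 0.0442). The fold enrichment of the Dlg5 region was 7.62, 6.65 and 7.17 in WT and 8.70, 8.40 and 9.38 in cKO, without overlap.

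The shorter regions included the largest change among deep regions that passed, in Tns3, a tensin gene of focal adhesions (chr11:8539531-8542899). It covered 3183, 3363 and 2106 bp in WT and 520, 462 and 770 bp in cKO. Scaled means were 2760 ± 95.2 and 625 ± 223 bp (SD, n = 3 each), a log2 change of −1.88 ± 0.18 (SE, limma adjusted p = 0.0241). No peak in the Tns3 region reached a −log10 q of 5 (at most 2.98, 4.45 and 3.08 in WT and 3.90, 2.57 and 2.07 in cKO). Restricting the lists to such peaks therefore left it untested. In Gpm6a, the gene of a neuronal membrane glycoprotein of growing neurites (chr8:54828897-54830936), 1858, 2027 and 1573 bp were covered in WT and 630, 562 and 561 bp in cKO. Its log2 change was −1.27 ± 0.14 (SE, limma adjusted p = 0.0409). In Opcml, an adhesion gene of the IgLON family (chr9:28211242-28212975), 1494, 1734 and 1460 bp were covered in WT and 372, 448 and 677 bp in cKO, a change of −1.27 ± 0.14 (SE, limma adjusted p = 0.0416). In all 5 regions every cKO library lay beyond every WT library. The peaks of these 3 shorter regions were of low height: fold enrichment was 3.55 to 4.26 in Tns3, 3.90 to 4.76 in Gpm6a and 4.05 to 5.11 in Opcml, and the ranges of the genotypes overlapped in each of these 3.

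The 5 calls, like those over all regions, depend on which libraries are included. Without WT replicate 1, WT replicate 2, cKO replicate 1 or cKO replicate 2 no deep region passed (538, 676, 632 and 638 at an unadjusted p below 0.05 in limma), and without WT replicate 3 or cKO replicate 3 there were 6, of which 1 was among the 5. When either replicate 3 is left out, the identifier term takes up the other one. The log2 changes are then those of identifier A alone. With the replicate numbers as a block 0 passed (628 unadjusted). The signs of all 5 held under every alternative that gave a value.

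**Figure D4:**
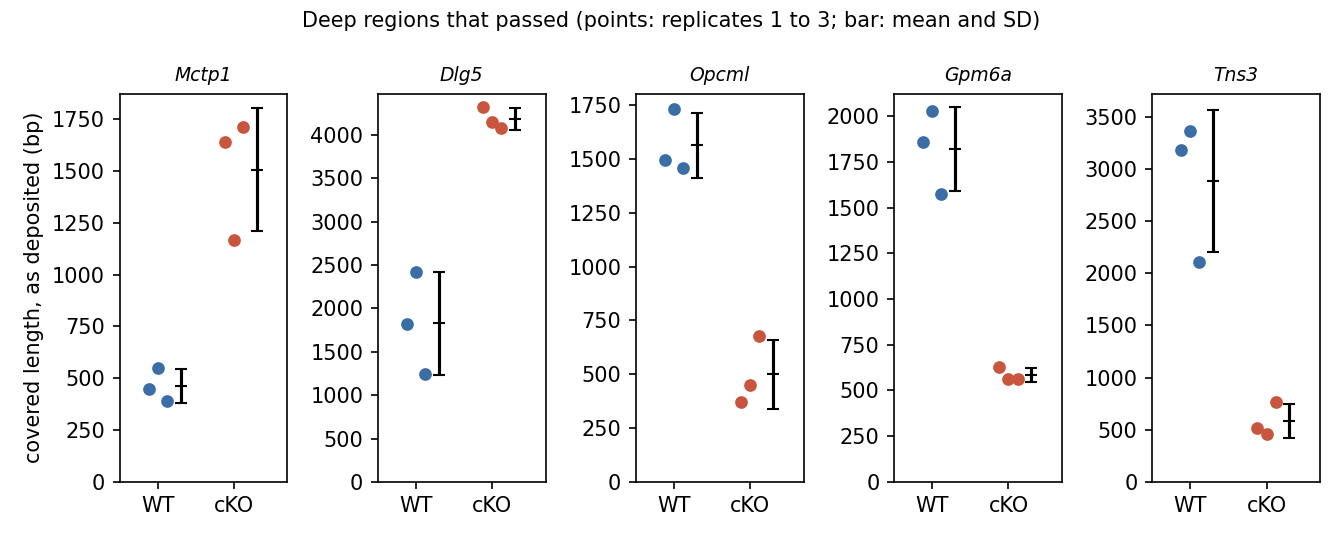
Covered length in bp, as deposited and unscaled, of the 5 deep regions that passed the limma test, with 1 point per library and the mean and SD beside each genotype (n = 3). In Mctp1 and Dlg5 all 3 cKO points lie above the WT points, and in Opcml, Gpm6a and Tns3 all lie below, as in Tns3, where cKO reaches 770 bp and WT starts at 2106 bp.

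Further deep regions with little overlap missed the threshold and are named after their values were seen. In Mecom, a PRDM family gene and the closest relative of Prdm16, the region at chr3:30416051-30418972 covered 681, 701 and 553 bp in WT and 2821, 1864 and 1994 bp in cKO (log2 change 1.60 ± 0.19 SE, limma adjusted p = 0.0534). Ddah1, an enzyme gene of nitric oxide metabolism, held a region with 777, 854 and 533 bp in WT and 2062, 2530 and 1609 bp in cKO (chr3:145815820-145818468). A second region in Ddah1, at chr3:145833136-145834736, had the opposite sign, with 1538, 1432 and 676 bp in WT and 331, 405 and 286 bp in cKO. These 2 regions of one gene lay about as close to the threshold, with log2 changes of 1.40 and −1.24 and limma adjusted p of 0.0520 and 0.0584. In Lrig1, a gene of stem cells and growth factor receptor control, a region at chr6:94630531-94633239 covered 1420, 1609 and 795 bp in WT and 2539, 2709 and 1807 bp in cKO (limma adjusted p = 0.0884).

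None of the regions in the genes holding most deep regions was called. Over all deep regions tested only 5 of 9352 (0.0535%) were, so this count says little about these genes. Their 518 regions were all tested, and the median log2 change per gene ran from −0.08 in Celf2 to 0.15 in Bach2. In Tenm4, 147787, 159763 and 82058 bp were covered over its 58 regions in WT and 125711, 124393 and 104072 bp in cKO. In Sox5, 81809, 81618 and 51882 bp were covered in WT and 69610, 68308 and 61793 bp in cKO. Both genes show the order found in all 15, with WT replicate 3 lowest, WT replicates 1 and 2 highest and the cKO libraries between them, which is also the order of the total list lengths of WT and cKO. After scaling, the whole deep interiors of the 15 genes differed by log2 changes of −0.19 in Cdkal1 to 0.12 in Bach2, with limma adjusted p of 0.477 or more. Celf2 had the most regions at an unadjusted p below 0.05 in limma, 6 of 30, of which 2 were longer and 4 shorter. Cdkal1 had 0 of 28, and the share over all deep regions was 9.12%.

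Over the gene lists, 1 deep region passed, that in Opcml, of 407 in the list of synaptic and neuronal adhesion. Over all deep regions tested 0.0535% passed, so a single call says little about the lists. The median log2 change of the regions of a list lay between −0.01 for RNA-binding genes and 0.19 for vascular, meningeal, microglial and blood genes, beside 0.06 over all regions tested. The share at an unadjusted p below 0.05 in limma was 5.38% for cytoskeletal and migration genes and 7.37% for synaptic adhesion. It was 8.94% for both transcription factors and ion channels and 13.8% for axon guidance. For radial glia and progenitors it was 20.9% (4 longer and 5 shorter of 43). The share was 9.12% over deep regions and 10.2% over all regions. Chromatin, RNA-binding, receptor and cadherin genes lay between 8.55 and 11.7%. Robo2 was the gene of the axon guidance list with most regions. Its deep interior measured 34960, 32001 and 30928 scaled bp in WT and 23057, 18446 and 22340 scaled bp in cKO, without overlap (log2 change −0.61 ± 0.14 SE, limma adjusted p = 0.154). Gli3 measured 44320, 52261 and 38561 scaled bp in WT and 31833, 29444 and 32984 scaled bp in cKO (−0.50 ± 0.14 SE, limma adjusted p = 0.218). Pdzrn3, a ubiquitin ligase gene known from the study's publication, held 7 deep regions, all with a positive log2 change of 0.12 to 0.37 and none called, and its interior changed by 0.55 ± 0.14 (SE, limma adjusted p = 0.180). None of these 3 interiors passed.

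For the lists of other cell types the numbers of regions were small and none passed. Of the 11 regions in oligodendrocyte genes, 4 were longer in cKO at an unadjusted p below 0.05 in limma and 0 shorter, with a median log2 change of 0.05. The unadjusted share was 36.4%, beside 9.12% over deep regions and 10.2% over all regions. No interior of the list passed, and the largest differences had opposite signs. Lhfpl3 measured 3355, 3532 and 2517 scaled bp in WT and 4891, 4916 and 4077 scaled bp in cKO (limma adjusted p = 0.141), and Mbp, a myelin protein gene, 2166, 2755 and 1789 scaled bp in WT and 919, 1286 and 1280 scaled bp in cKO (limma adjusted p = 0.179). Of the 6 regions in interneuron and ventral forebrain genes 4 had a positive change, and of the 12 in vascular, meningeal, microglial and blood genes 9 had, beside 31646 of all 52636 regions tested. The part of cell composition in the changes above was not tested.

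Whole deep interiors were also compared gene by gene, counting every peak in them whether shared or not. Of 2387 genes with a mean scaled length of at least 1000 bp, 9 passed in limma after adding 500 bp (0.377%), 3 longer (0.126%) and 6 shorter (0.251%) in cKO. At an unadjusted p below 0.05 there were 333 genes (14%), 141 longer (5.91%) and 192 shorter (8.04%). Without scaling there were 183, 30 longer and 153 shorter. The median log2 change was −0.02 over the 2270 tested genes that hold a deep region, and −0.12 without scaling.

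The longer interiors were led by Ppp1r14c, which encodes an inhibitor of protein phosphatase 1 (chr10:3365974-3464978). It measured 798, 553 and 528 scaled bp in WT and 3649, 3618 and 2967 scaled bp in cKO, a log2 change of 1.80 ± 0.13 (SE, limma adjusted p = 0.0129). Its 1 deep region accounts for little of this: 486, 700 and 391 bp were covered in WT and 999, 743 and 649 bp in cKO, and it did not pass (limma adjusted p = 0.425). Mecom (chr3:29951296-30509759) measured 1674, 1740 and 1369 scaled bp in WT and 7186, 4877 and 5535 scaled bp in cKO, a log2 change of 1.59 ± 0.16 (SE, limma adjusted p = 0.0291). It held 2 deep regions in 518.5 kb, that described above and one at chr3:30219232-30219895 where the genotypes overlapped. Aqr, a spliceosomal helicase gene (chr2:114101161-114175339), measured 622, 372 and 541 scaled bp in WT and 1665, 1473 and 1819 scaled bp in cKO, a log2 change of 1.09 ± 0.14 (SE, limma adjusted p = 0.0477). Every cKO library exceeded every WT library in all 3 genes.

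Among the shorter interiors, Epha6, an ephrin receptor gene with 1 deep region in 929.5 kb (chr16:59641433-60610911), measured 4759, 4984 and 5480 scaled bp in WT and 2052, 1860 and 1717 scaled bp in cKO. The log2 change was −1.23 ± 0.12 (SE, limma adjusted p = 0.0291). Its deep region at chr16:59852744-59855579 covered 2445, 2816 and 2386 bp in WT and 1254, 850 and 1189 bp in cKO, without overlap and without passing (limma adjusted p = 0.151). Meis1, a homeodomain transcription factor gene (chr11:18880428-19019651), measured 3925, 3934 and 2393 scaled bp in WT and 1800, 1494 and 877 scaled bp in cKO, a log2 change of −1.06 ± 0.11 (SE, limma adjusted p = 0.0291). With only peaks whose −log10 q reached 5 it was −0.21 (adjusted p = 0.915). The 1 deep region of Meis1 overlaps a promoter of another gene. Arfgef3, a gene related to activators of small GTPases, fell by 1.31 on the log2 scale and the zinc-finger gene Zfp277 by 1.07 (limma adjusted p = 0.0336 and 0.0320), each with 2 deep regions. In Zfp277 one of them, at chr12:40378537-40379577, covered 1041, 894 and 826 bp in WT and 330, 175 and 158 bp in cKO, without overlap (limma adjusted p = 0.143). Asb4, a gene of ubiquitin ligase complexes, fell by 1.18 (limma adjusted p = 0.0291) and the metalloprotease gene Adamts18 passed with an adjusted p of 0.0145. These last 2 hold 0 deep regions, so their change lay in peaks outside the deep regions. The Adamts18 interior measured 2832, 3397 and 1835 scaled bp in WT, and in cKO 267 scaled bp in replicate 1 and 0 in replicates 2 and 3. Of the 9 genes, 7 hold a deep region, beside 2270 of all 2387 genes tested, and none of the regions in those 7 passed on its own.

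The 9 calls also depend on which libraries are included, though every log2 change kept its sign wherever it could be fitted. Without WT replicate 1 or cKO replicate 1 no interior passed (251 and 258 genes at an unadjusted p below 0.05 in limma), without cKO replicate 2 there were 2, and without WT replicate 2, WT replicate 3 or cKO replicate 3 there were 4. As for regions, the fits leaving out WT replicate 3 or cKO replicate 3 give the log2 changes of identifier A alone. With the replicate numbers as a block 0 passed (293 unadjusted). Fitting without scaling left 2.

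**Figure D5:**
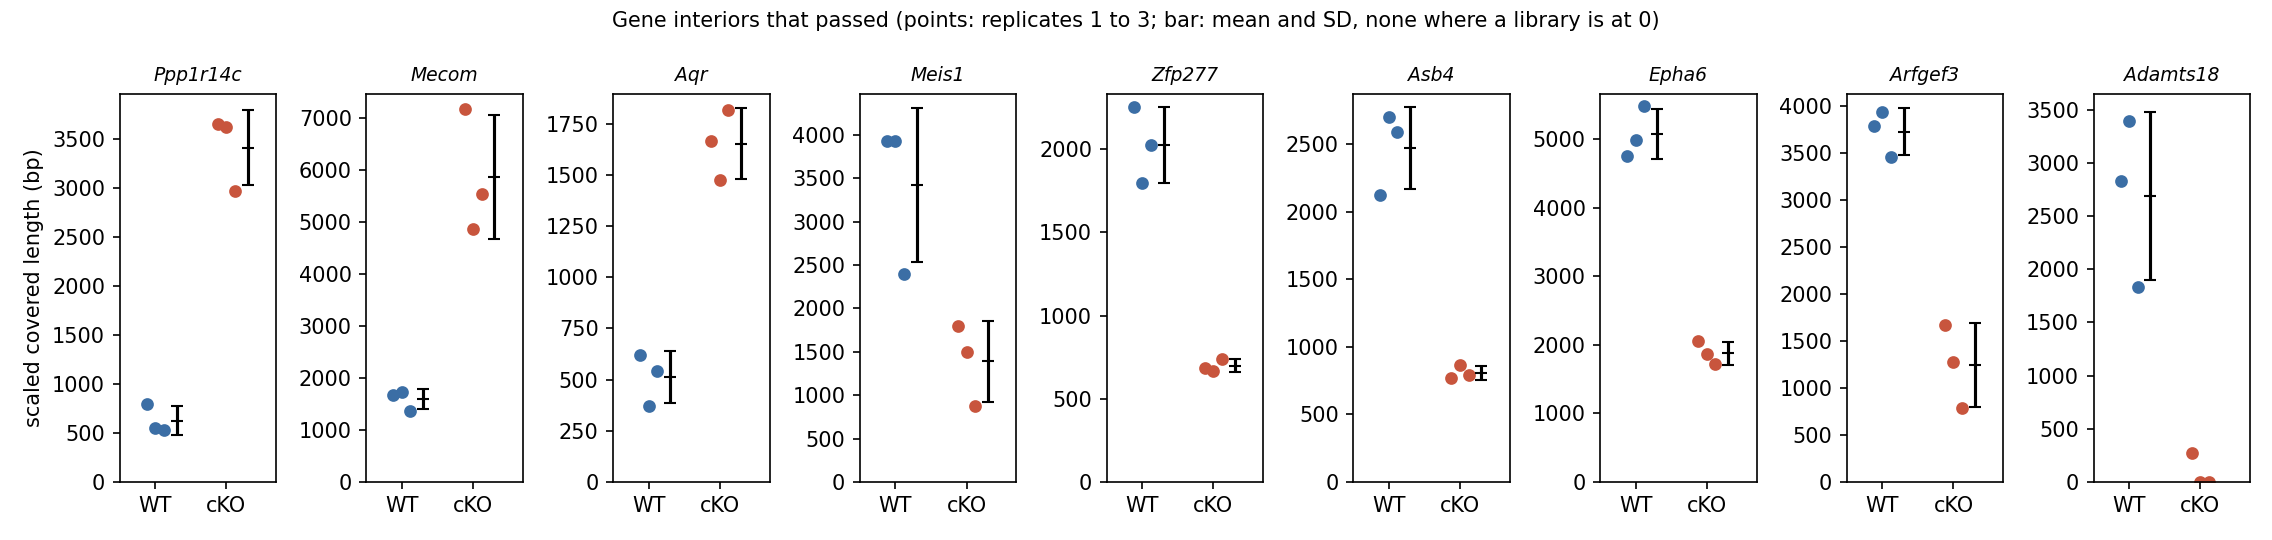
Scaled covered length in bp over the whole deep interior of the 9 genes that passed the limma test, with 1 point per library and the mean and SD beside each genotype (n = 3), left out for Adamts18 in cKO because 2 libraries are at 0. All cKO points lie above the WT points in Ppp1r14c, Mecom and Aqr and below them in the other 6 genes.

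Few deep regions lay over microRNA hairpins. Of 1005 hairpins in the RefSeq table, 154 lay wholly in deep interiors and 10 of those (6.49%) in a deep region. The 10 loci gave 15 mature microRNAs with 15 different seeds, so no seed was shared. The region over Mir128-2 (chr9:112117709-112119292) covered 911, 1144 and 791 bp in WT and 855, 1122 and 1226 bp in cKO, and the genotypes overlapped (log2 change 0.24 ± 0.16 SE, limma adjusted p = 0.693). The region over Mir701 in Ttc28 (chr5:111002249-111008713) covered 6189, 5323 and 4106 bp in WT and 5010, 5181 and 4886 bp in cKO. The strongest of the 10, over Mir6402 in Elavl2, a gene of a neuronal RNA-binding protein, also covered promoters of the host gene and had a −log10 q of at least 43.1 in every library. None of the 10 passed. The smallest unadjusted p in limma, 0.0421, belonged to the region over Mir6339 in Tgm3 (log2 change 0.52 ± 0.19 SE). It covered 290, 309 and 500 bp in WT and 511, 577 and 632 bp in cKO, without overlap, but the scaled lengths overlapped.

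Over all deep regions together the genotypes did not differ beyond the spread of the WT libraries. Peaks in deep regions covered 15.4, 16.4 and 10.5 Mb in WT and 13.8, 13.4 and 12.1 Mb in cKO. The means were 14.1 ± 3.18 and 13.1 ± 0.884 Mb (SD, n = 3 each), a difference of −0.991 Mb (two-sided exact permutation test, p = 0.7, adjusted p = 0.7 over 4 measures, smallest possible p 0.1). The difference was −2.31 Mb within identifier A and 1.65 Mb within identifier B, opposite in sign. As a share of all covered length, deep regions took 18.5, 17.8 and 19.4% in WT and 18.9, 18.9 and 19.04% in cKO, a difference of 0.386 points (exact permutation p = 0.5, adjusted p = 0.7), with 0.762 points within identifier A and −0.366 within B. The median length per region differed by −90.5 bp (exact permutation p = 0.7, adjusted p = 0.7), with −214 bp within identifier A and 156.5 bp within B. The number of peaks per region was 1.05 in WT and 1.06 in cKO (exact permutation p = 0.4, adjusted p = 0.7), with differences of 0.0174 within identifier A and 0.0016 within B. Without WT replicate 2, which has the longest list, the differences in total, share and median turned to 0.161 Mb, −0.000278 points and 17.8 bp.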

How the data were processed

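H3K27ac was profiled by native chromatin immunoprecipitation with micrococcal nuclease digestion in 6 libraries of embryonic mouse cortex, per the labels' protocols. The submitters' processing notes name mm10, Bowtie2 2.2.8, MACS2 2.1.1, FastQC and cutadapt. Their settings, and whether the 6 input libraries served as controls, are not stated there. The deposited broad peak lists give, for each peak, positions, a fold enrichment ratio and −log10 p and −log10 q values, all made by the authors. The display score in the deposited lists was not used. Lists reached down to −log10 q values of 1.31 to 1.39. Lists held 48168 to 75563 peaks, depth is unknown, and a longer list covers more bases in every class. No libraries were near-identical: at most 20 of 9370 deep regions had equal covered lengths in any pair.

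Gene bodies were those of RefSeq on GRCm38.p6 (21887 protein-coding genes on the main chromosomes), in a table without exons, so regions are placed in gene bodies only. Strand came from the RefSeq promoter table. Covered length, the bases under peaks, was scaled to equal totals, and regions (200 bp added, mean of at least 250 bp) and deep interiors (500 bp added, mean of at least 1000 bp) were each fitted together with limma 3.58.1 in R 4.3.3 (lmFit and eBayes, trend and robust off), genotype and library identifier as terms, Benjamini-Hochberg adjusted p below 0.05 as the call. Every adjusted p of a region or gene is from limma. Library measures used exact permutation over the 20 assignments, and class comparisons exact sign flips over 6 libraries. Python 3.11.15 with scipy 1.17.1, pandas 2.3.3, numpy 2.4.6 and matplotlib 3.10.9 did the rest. On simulated data both fits recovered the size of planted changes. For gene interiors most of the larger ones passed, but for regions none passed after adjustment.

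The regions and the 13 gene lists (338 genes) were chosen with earlier results of these data known. By rule, the text names the 15 genes with most deep regions, the 10 with most per 100 kb among those with at least 5, Prdm16, up to 4 genes per list, the 10 strongest regions and the regions and interiors that passed, at most 10 per direction. Other genes, the promoter and microRNA items, and 4 added comparisons (interior against intergenic coverage, the side nearer the gene start, and host promoter against none in fold and in length) were chosen after values were seen. Motifs were searched only in RefSeq promoter windows, because no genome was used here. Alternatives were stricter or equal-length lists, libraries left out, other terms for the identifier, scalings, constants and filters, and other limits of distance, width, coverage and merging.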

Additional observations from a re-analysis of the deposited data

How the results depend on the processing

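The 4 class differences kept their direction under every alternative tried, and the 4 added comparisons did with each library left out, the only alternative run for them. With 1 library left out the exact p cannot go below 0.0625, and the differences ranged from −4.69 to −4.44 in fold enrichment against gene ends, −0.179 to −0.157 against distal intergenic regions, −465 to −426 bp and 117 to 142 bp in covered length against the same classes, 1.82 to 2.11 points of covered interior over intergenic DNA, −0.987 to −0.861 points on the side nearer the gene start, and 3.43 to 3.67 in fold and 643 to 662 bp for host promoters over none. Restricted to peaks whose −log10 q reached 5, the length difference to gene ends was −66.5 bp (exact sign-flip permutation, adjusted p = 0.09375).

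The limma counts of calls moved with most choices. Over all regions tested they ran from 0 with the replicate block to 1112 within identifier A alone, beside 395 in the main fit. For the stricter and equal-length lists, these fits kept the deep regions of the full lists, and only covered lengths changed. The 5 deep regions became 153 of 6668 tested with only those stricter peaks (1 of the 5 among them), beside 520 of 32081 over all regions. In lists of equal length they became 36 of 9175 tested (4 of the 5), beside 691 of 44944 over all regions. They became 8 without the identifier covariate (3 of the 5), 8 within identifier A alone (1), 2 without scaling (1), 2 when scaled to shared regions (2), 2 after quantile normalization (1), 2 with limma's trend (2), 3 and 12 with 50 and 1000 bp added (3 and 5), and 10 among shared regions alone (5). None passed with no filter on length (538 at an unadjusted p below 0.05) or where peaks had to cover 50% of the region in every library (95 unadjusted), and 8 and 3 passed among regions over 10 and 50 kb from gene ends. The 9 interiors became 2 with the stricter peaks (0 of the 9), 15 in equal-length lists (4), 2 without scaling (2), 15 after quantile normalization (8), 32 with the trend (8), 0 within identifier A alone (378 unadjusted) and 0 with no filter (438 unadjusted). They were 7 without the identifier covariate (7 of the 9), 8 when scaled to shared regions (8) and 7 and 8 with 50 and 1000 bp added (6 and 8). Among genes holding a deep region alone they were 7 (7). With a library left out the counts were 0 to 6 deep regions, beside 0 to 779 over all regions, and 0 to 4 interiors. The fits without WT replicate 3 or cKO replicate 3 share the log2 changes of identifier A alone, so these settings are not separate estimates. The cause of these shifts was not tested. Log2 changes of the called regions and interiors never reversed where they could be fitted. With the stricter peaks, the region in Tns3 and the interiors of Ppp1r14c, Aqr, Epha6, Zfp277 and Adamts18 fell below the length filter and were not tested. Several of the others shrank or grew by over 1.5 times and lost their call. These were Mctp1 at 0.48, Gpm6a at −2.15, Meis1 at −0.21, Arfgef3 at −0.60 and Mecom at 2.39 (limma adjusted p = 0.927, 0.598, 0.915, 0.481 and 0.140).

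Replicate numbers are shared between genotypes, but deviations of same-numbered libraries correlated at only 0.0936, 0.0793 and 0.174, and WT replicate 2 correlated better with cKO replicate 1, so the numbers are not shown to pair the samples. With the replicate block, 0 regions (628 unadjusted) and 0 interiors (293 unadjusted) passed.

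With a library left out, the genotype difference ranged from −2.81 to 0.161 Mb in total length, −0.000278 to 0.804 points in share, −258 to 17.8 bp in median length and 0.00555 to 0.0241 in peaks per region. It reversed to 0.161 Mb, −0.000278 points and 17.8 bp without WT replicate 2, to −0.223 points of share in lists of equal length, and to −0.000184 peaks per region when gaps of up to 1 kb were merged, where the joining of neighbouring peaks is part of the setting.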
